A study of Mus musculus with 4 samples.

Results

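Potassium channel genes made up 87 of the 27631 genes or unnamed transcripts on a whole-genome mouse array, and were read by 130 of its 41174 probes. They were every gene whose name in the scanner files starts with Kcn and a family letter (Kcna to Kcnv), pore-forming and accessory subunits together. The rule also takes in Kcnq1ot1, a long noncoding RNA transcribed from within the Kcnq1 gene. For each gene the brightest probe, by its mean over all arrays, stands for it. That choice does not compare groups, but a probe bright in 1 group alone can be chosen through that group. The 34 genes with more than 1 probe are taken up again below.

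The arrays compared embryos with conditional ablation of Rest (CKO) and wild type embryos (WT) at E13.5 (days of embryonic development), in limb and in brain. Rest encodes a zinc finger protein that represses neuronal genes outside neurons and in neural progenitors. The 4 groups were CKO limb, WT limb, CKO brain and WT brain, with 1 array each, all from mice of 129 and C57BL/6 background. Doxycycline from E8.5 to E13.5, which switches on the Cre alleles that delete the floxed Rest, is recorded for all 4 samples, WT included. The tissue in which Cre acts, the deleted part of Rest and the number of embryos behind each RNA are not given in the sources used here.

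Potassium channels let potassium ions leave the cell and so set the resting potential, end the action potential and pace repeated firing. Voltage-gated subunits (Kv, Kcnh and Kcnq families) open on depolarisation, inward rectifiers and tandem-pore channels carry the resting conductance, and calcium- and sodium-activated channels answer to ions that enter during activity. Accessory subunits change the gating and surface transport of the pores. In embryonic brain these genes are known mainly from neurons and glia, and in limb from muscle, vessels, skeletal precursors and the ingrowing nerves.

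Levels are log2 signals on a scale where 0 is the 75th percentile of the array, and every difference is a difference of such levels. A gene was compared where its probe was well above background, as called by the scanner software, on at least 1 of the 2 arrays. Where only 1 of them was, the difference is a bound, given as "at least". A bound sets no upper limit, and a bound of 0 tells nothing of the size. With 1 array per group there was no test between CKO and WT within a tissue, and genes are called by size alone, at least 2-fold. The only error in these files is that between spots of 1 array. Over the 245 probes printed 10 times, the median SD of a spot's CKO minus WT difference was 0.056 in limb and 0.062 in brain. Among those with a mean level below -3 it was 0.31 in limb and 0.34 in brain, and it was at most 0.060 in either tissue for brighter ones. This error covers neither labelling nor embryos.

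Rest, the targeted gene, was lower in both CKO tissues on all 3 of its probes. In CKO limb the 3 probes were 17.2-fold, 15.7-fold and 4.03-fold lower than in WT limb, and in CKO brain at least 6.60-fold, 11.9-fold and 1.88-fold lower than in WT brain. Spots well above background made up 68.6% of 43379 on the CKO limb array, 62.7% on WT limb, 70.7% on CKO brain and 64.5% on WT brain, a higher share on each CKO array than on the WT array of the same tissue. Potassium channel genes well above background on at least 1 probe numbered 63 in CKO limb, 47 in WT limb, 72 in CKO brain and 65 in WT brain. By the representative probe, 43 genes were well above background on all 4 arrays and 11 on none. Among the 11 were Kcnd1, Kcng3, Kcng4, Kcnj1, Kcnj5, Kcnj6, Kcnk16, Kcnmb3, Kcns2 and Kcnv2.

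In limb, 62 potassium channel genes could be compared, and 11 of them (17.7%) were at least 2-fold higher in CKO than in WT, against 2.5% of all 18450 genes compared. They included the tandem-pore channel Kcnk3, the sodium-activated channel Kcnt1, the Kv subunits Kcnc1 and Kcnb2, the silent subunit Kcnv1, Kcnh1, Kcnh2, the inward rectifier Kcnj12 and the accessory protein Kcnip1. A single gene, the accessory subunit Kcnmb1, was at least 2-fold lower (1.61%, against 2.16% of all genes). The median limb difference was 0.083 over the 62 genes, against -0.022 over all genes compared, with quartiles of -0.10 and 0.54. Of the 62, 15 were well above background in CKO limb alone, 1 in WT limb alone and 46 on both. Over all genes, 16672 of the 18450 compared were measured on both limb arrays. How the rest split between CKO and WT limb was not counted here. Genes seen on 1 limb array could only be called in the direction of the array that showed them. Among the 46 measured on both limb arrays, 7 were at least 2-fold higher, against 1.58% of all genes so measured, and 0 were lower, against 1.3%. At 1.5-fold 15 of the 62 were higher, against 4.78% of all genes, and 2 were lower, against 4.73%. Normexp background correction is a model-based subtraction of local background from the raw mean intensity, here with a constant of 50 added. The constant by itself makes fold differences of dim probes smaller. Under it Kcnb2, Kcnh1, Kcnh2, Kcnip1, Kcnj12 and Kcnmb1 lost their 2-fold call. With the mean of all probes of a gene Kcnh1, Kcnv1 and Kcnmb1 lost theirs. These last were bounds that fell short of 2-fold, which does not show a difference below 2-fold.

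**Figure D1:**
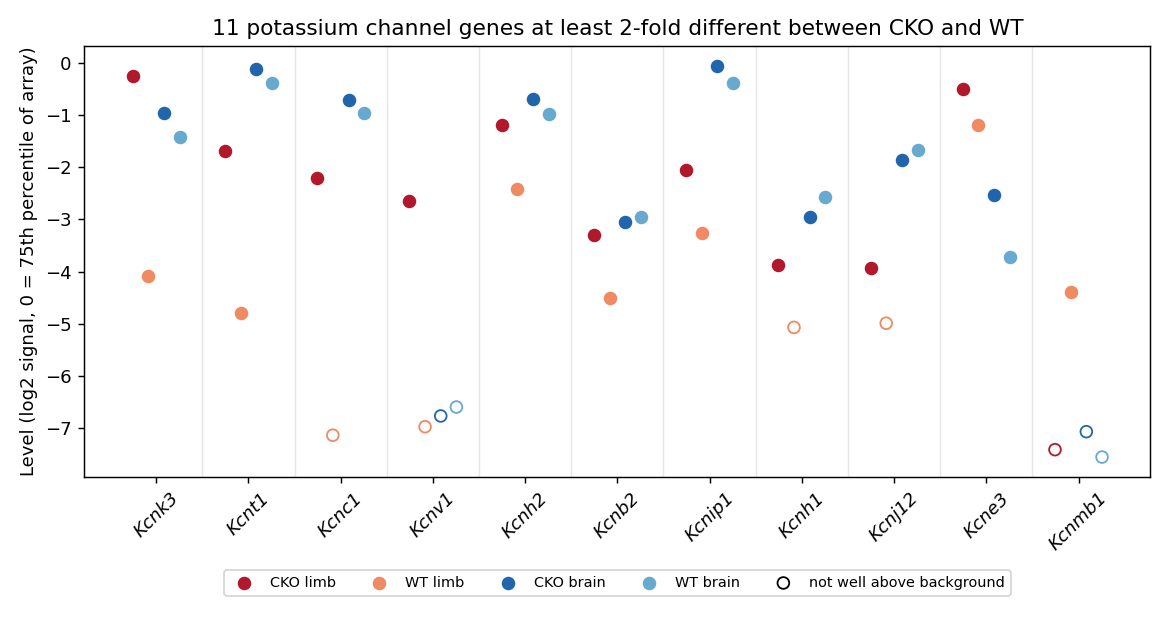
Levels of 11 potassium channel genes that were at least 2-fold different between CKO and WT in limb or brain, by array (vertical axis, log2 signal with 0 at the 75th percentile of the array; 1 point per array; open points were not well above background). The CKO limb point lies above the WT limb point for every gene shown except Kcnmb1, while the CKO and WT brain points of each gene lie within 1 log2 unit of each other except for Kcne3.

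Kcnk3 encodes an acid-sensitive background leak channel that holds cells at a negative resting potential. Its level was -0.25 in CKO limb against -4.09 in WT limb, and -0.95 in CKO brain against -1.42 in WT brain. The WT limb array thus stood apart from the other three. The limb difference was 3.84, or 14.3-fold higher in CKO, and the brain difference 0.47. The probe lies at chr5:30927090-30927149 (mm9), and a second Kcnk3 probe at chr5:30925553 was at -1.99 in CKO limb and not well above background in WT limb, at least 2.96 higher. Among the other tandem-pore channels Kcnk7 was the farthest off, at -4.82 in CKO limb against -4.18 in WT limb, a difference of -0.64. Kcnk1, Kcnk2, Kcnk5, Kcnk6 and Kcnk13 differed by -0.34 to 0.31 in limb. Kcnk4, Kcnk10 and Kcnk12 were not well above background on either limb array.

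Kcnt1, the pore of a sodium-activated channel that shapes the pause after bursts of firing, was at -1.68 in CKO limb against -4.79 in WT limb, and at -0.11 in CKO brain against -0.37 in WT brain. The limb difference of 3.11 made it 8.65-fold higher in CKO. Its probe lies at chr2:25772070-25772129 (mm9). None of the 7 other sodium- and calcium-activated channels was called in limb. Kcnt2, Kcnu1, Kcnn1 and Kcnn2 were measured on both limb arrays and differed by -0.30 to 0.02. Kcnma1, Kcnn3 and Kcnn4 were not well above background in WT limb, and their bounds were at least 0.38, 0 and 0.54. Kcnn4, an intermediate-conductance calcium-activated channel, is known from other work as a gene that REST can repress. Its level in CKO limb was -4.39. Kcnn2, whose representative probe was printed 10 times on each array, was at -2.06 in CKO limb against -2.08 in WT limb, and its difference of 0.022 was below the spot SD of 0.077.

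The delayed and fast voltage-gated subunits gave 4 of the 11 genes. Kcnc1 encodes a Shaw-type subunit, whose quick closing lets neurons fire at high frequency. Kcnc1 was at -2.19 in CKO limb and, at -7.14, not well above background in WT limb, and its brain levels were -0.71 in CKO and -0.96 in WT. It was at least 6.75-fold higher in CKO limb (chr7:53682767-53682826, mm9). Its paralog Kcnc4 was at -4.30 in CKO limb against -3.89 in WT limb, and Kcnc2 was not well above background in either.

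Kcnb2, a Shab-type delayed rectifier, was at -3.29 in CKO limb against -4.50 in WT limb, 2.31-fold higher, and at -3.04 in CKO brain against -2.96 in WT brain (chr1:15703259-15703318, mm9). The Shaker and A-type subunits did not share the pattern: Kcna1, Kcna4, Kcna5, Kcna6 and Kcnd2 differed by -0.29 to 0.26 in limb. Kcna6 was at 2.55 in CKO limb against 2.53 in WT limb. Kcna2, Kcna3 and the A-type subunit Kcnd3 were not well above background in either limb.

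Silent Kv subunits form no channel alone and modify other Kv channels. Kcnv1 was the single gene of this class called in limb, at -2.64 in CKO limb and -6.98 in WT limb, the WT value not well above background. In brain it was not well above background on either array, at -6.77 in CKO and -6.60 in WT. It was at least 4.95-fold higher in CKO limb (chr15:44940003-44940062, mm9). Kcnv1 and the inward rectifier Kcnj2, at -4.73 there, were the genes well above background on the CKO limb array alone by their representative probes. The probe that stands for Kcnv1 was chosen through its CKO limb level. The other Kcnv1 probe, well above background on no array, was dimmer in limb but read higher in brain, at -6.73 in CKO and -5.44 in WT. The silent subunits Kcns1, Kcns3 and Kcng2 differed by -0.42 to 0.14 in limb, and Kcnf1 was well above background in brain alone. Kcns1 was at -4.00 in CKO limb against -3.59 in WT limb.

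The Kcnh family gave 2 genes. Kcnh2, whose product carries the rapid repolarising current of the heart, was at -1.19 in CKO limb against -2.40 in WT limb, and at -0.68 in CKO brain against -0.97 in WT brain. It was 2.33-fold higher in CKO limb (probe ends at chr5:23827188 and chr5:23827460, mm9). Kcnh1, an ether-a-go-go channel, was at -3.87 in CKO limb and not well above background in WT limb, at least 2.12-fold higher (chr1:194330482-194330541, mm9), and at -2.96 in CKO brain against -2.57 in WT brain. Kcnh6 differed by -0.47 in limb. Kcnh4 and Kcnh5 were not well above background in WT limb, with bounds of at least 0.01 and 0. Kcnh3, Kcnh7 and Kcnh8 were not well above background in either limb by their representative probes. Of the Kcnq subunits, which carry the M current of neurons and the slow cardiac current, 4 could be compared in limb and 0 were called. Kcnq1 was at -2.28 in CKO limb against -2.73 in WT limb, a difference of 0.45. Kcnq3, known from other work as a gene that REST can repress, was at -4.42 in CKO limb against -4.27 in WT limb, and Kcnq5 had a bound of 0.

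Among the inward rectifiers, Kcnj12, a strong rectifier of muscle and neurons, was at -3.94 in CKO limb and not well above background in WT limb, at least 2.01-fold higher. It was at -1.86 in CKO brain against -1.66 in WT brain (chr11:60884085-60884143, mm9). Kcnj11, the pore of the ATP-sensitive channel of neurons and muscle, was just below the threshold, at -3.62 in CKO limb against -4.33 in WT limb, 1.64-fold higher. Kcnj8, the pore of the vascular ATP-sensitive channel and a pericyte gene, was at 1.42 in CKO limb against 1.25 in WT limb. Of the other inward rectifiers compared in limb, Kcnj4, Kcnj9, Kcnj14 and Kcnj15 differed by -0.31 to 0.27. Kcnj2 and Kcnj10 were not well above background in WT limb, with bounds of at least 0.22 and 0. Kcnj10 was at -5.27 in CKO limb. Kcnj3 and Kcnj16 were well above background in brain alone by their representative probes. Another Kcnj16 probe was at -4.82 in CKO limb and not well above background in WT limb.

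The accessory class had 1 gene higher and 1 lower in limb. Kcnip1, a calcium-binding protein that joins the Kcnd channels, was at -2.05 in CKO limb against -3.25 in WT limb, 2.31-fold higher, and at -0.04 in CKO brain against -0.37 in WT brain (chr11:33530511-33530570, mm9). Kcnip3, its relative that also binds DNA as a calcium-dependent repressor, was 1.90-fold higher, at -2.23 in CKO limb against -3.15 in WT limb. Kcnip2 was at least 1.62-fold higher, at -4.25 in CKO limb and not well above background in WT limb. Kcnip4 was at -1.17 in CKO limb against -1.46 in WT limb. All 4 Kcnip genes thus lay above 0 in limb, 1 of them past the threshold. Kcnmb1, the smooth muscle beta subunit of the large-conductance calcium-activated channel, was at -7.42 in CKO limb, not well above background, against -4.39 in WT limb, at least 2.59-fold lower (chr11:33866191-33866250, mm9). Its relatives Kcnmb2 and Kcnmb4 differed by 0.29 and -0.06. The Kcnab subunits, which bind Kcna channels from the inside, differed by -0.17 to 0.53. The small subunits Kcne1l and Kcne4 differed by 0.43 and -0.23, and Kcne1 had a bound of 0.

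The element that REST binds was searched in the promoters of the potassium channel genes, because it is the sequence feature through which REST is known to reach its targets. The core of that element, with 12 fixed letters around 2 free ones, was searched on both strands of 300 bases (250 before to 50 after the start), in RefSeq promoters on GRCm38.p6. The table held 89 promoters of 64 of the 87 genes. The promoter of Gad2, a neuronal gene outside the channel families, holds an exact core and is shown for its letters, in capitals, of which the middle pair is free.
Gad2 (chr2:22622156-22622185, plus strand): gctgtggtAGCACCCTGGACAGcgcgttcc
An exact core was found in 0 of the 89, and in 0.0517% of all 32851 promoters. With up to 1 mismatch it was found in 2 promoters (2.25%, against 0.353% of all), those of Kcna5 and Kcnip3. With up to 2 mismatches 5 promoters had one (5.62%, against 4.46% of all), adding Kcne3 and both promoters of Kcnip1 that matched. Of these matches, those of Kcna5, Kcnip3 and Kcnip1 are shown because they begin before the gene start. The Kcne3 match, with 2 mismatches as in Kcnip1, begins after the gene start and is not shown. Kcnip1 is the one gene shown that was among the 11 higher in CKO limb. Each sequence is part of the promoter 5′ to 3′ on the strand of the gene, with the match, on either strand, in capitals.
Kcna5 (chr6:126535555-126535593, minus strand, 1 mismatch): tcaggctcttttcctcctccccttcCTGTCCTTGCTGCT
Kcnip3 (chr2:127521564-127521627, minus strand, 1 mismatch): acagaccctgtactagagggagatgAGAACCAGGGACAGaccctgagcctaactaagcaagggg
Kcnip1 (chr11:33843687-33843725, minus strand, 2 mismatches): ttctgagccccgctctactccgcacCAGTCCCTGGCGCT
Kcnip1 (chr11:33993402-33993443, minus strand, 2 mismatches): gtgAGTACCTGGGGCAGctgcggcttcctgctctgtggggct
Of the genes with 1 mismatch, Kcna5 was at -2.12 in CKO limb against -2.38 in WT limb, 1.19-fold higher, and Kcnip3, as given above, was 1.90-fold higher on its brighter probe. Of the 11 genes higher in CKO limb, 5 had a promoter in the table. Of those, 3 (Kcnip1, Kcnh1 and Kcnj12) held the core with up to 3 mismatches in at least 1 promoter. Counted by promoter and not by gene, 36% of the 89 had such a match, against 31.4% of all promoters. REST elements outside these windows were not analysed here.

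Different probes of a gene did not all read the same difference. Of the 12 genes called in limb, Kcnb2, Kcnh2, Kcnip1 and Kcnj12 had 1 probe. Kcnk3, Kcnt1 and Kcnc1 each had another probe well above background in limb, in every case higher in CKO, but only as a bound since WT limb was dark there. Those bounds were 2.96 for Kcnk3, 0.84 for Kcnt1, and 1.20 and 0.46 for the other probes of Kcnc1. For Kcnv1, Kcnh1 and Kcnmb1 every other probe was not well above background on either limb array. Kcnip3 differed by 0.92 on its brighter probe and 0.19 on its other. Apart from the representative probes, and chosen after their values were seen, a second Kcnab1 probe was at -3.61 in CKO limb and not well above background in WT limb, at least 2.53-fold higher, while the brighter one was at -1.11 against -0.94. A second Kcnh3 probe was at least 3.19-fold higher in CKO limb, where the representative one was dark in both. A second Kcnk5 probe was well above background in WT brain alone, at -2.02, and so at least 18-fold lower in CKO brain, while the representative one read -3.45 in CKO brain against -3.68 in WT brain.

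**Figure D2:**
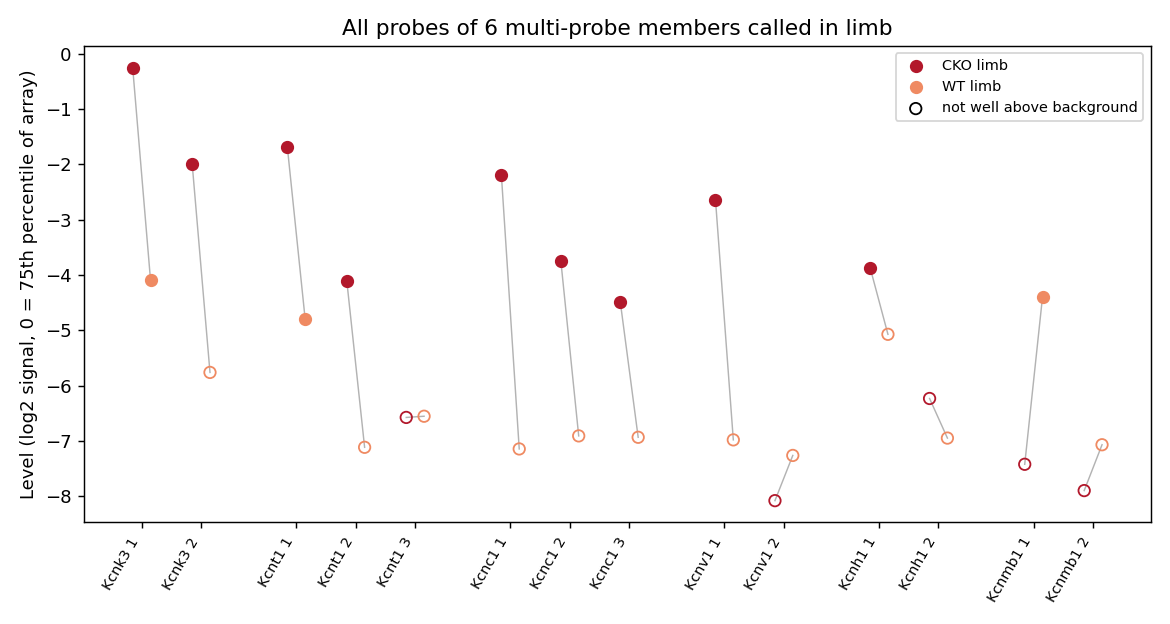
Levels of all probes of 6 genes called in limb that have more than 1 probe (vertical axis, log2 signal with 0 at the 75th percentile of the array; horizontal axis, probes numbered within a gene by brightness; lines join the CKO limb and WT limb points of a probe; open points were not well above background). WT limb points of the second probes of Kcnk3, Kcnt1 and Kcnc1 are all open, so those probes give bounds, while the second probes of Kcnv1, Kcnh1 and Kcnmb1 are open in both limbs.

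Neuronal markers were also higher in CKO limb, where 2.5% of all genes compared were at least 2-fold higher and 2.16% lower. Of 12 pan-neuronal genes, 6 were at least 2-fold higher, with a summed signal of 22.7 in CKO limb and 13.0 in WT limb, against 289 in CKO brain and 292 in WT brain (in units of each array's 75th percentile). Snap25, a synaptic vesicle fusion protein, was at 1.10 in CKO limb and not well above background in WT limb, while Syt1, a synaptic calcium sensor, was at -2.38 in CKO limb against -2.31 in WT limb. Of 7 sensory ganglion genes, whose cells send axons into the limb, 5 could be compared and 0 were 2-fold higher, with a sum of 0.662 in CKO limb against 0.650 in WT limb. Of 6 red cell genes 5 could be compared and 4 were at least 2-fold lower, with a sum of 208 in CKO limb against 462 in WT limb. Of 8 skeletal muscle genes 0 differed 2-fold, with a sum of 224 in CKO limb against 162 in WT limb, and of 4 epidermis genes 1 was lower, with 58.8 against 88.7. In bulk tissue, fewer or more cells of a type and less or more RNA per cell cannot be told apart. The part that these markers have in the channel differences was not tested.

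Genes that work with potassium channels, listed apart from the 87, gave 28 comparisons in limb, with 5 at least 2-fold higher and 0 lower, against 2.5% and 2.16% of all genes. Hcn3, a hyperpolarisation-activated cation channel, was at 0.66 in CKO limb against -2.41 in WT limb, 8.38-fold higher. Abcc8, the sulfonylurea receptor that pairs with Kcnj11, was at -0.98 in CKO limb against -3.03 in WT limb, 4.13-fold higher. Abcc9, the receptor that pairs with Kcnj8 in vessels, was at -0.94 against -1.31 in the same arrays. The other 3 were Dpp6, an extracellular partner of the Kcnd channels, at 3.81-fold, Hcn2 at 2.52-fold and Lgi1, a secreted ligand found with Kcna channels, at 2.21-fold. The median of the 28 was 0.24. In brain 28 could be compared and 0 differed 2-fold in either direction.

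In brain, 72 potassium channel genes could be compared between CKO and WT. Only Kcne3 was at least 2-fold higher (1.39%, against 1.37% of 18946 genes), and 0 were lower, against 1.22%. The share was close to that of the whole array, and with normexp background correction Kcne3 differed by 0.67, below 2-fold. The median was 0.035, against -0.0098 over all genes, with quartiles of -0.11 and 0.27. Of the 72, 65 were measured on both brain arrays, of which 1 was higher (0.878% of all genes so measured) and 0 lower (0.515%), and 7 were well above background in CKO brain alone. Over all genes, 17085 of the 18946 compared were measured on both brain arrays, and the rest were not split by array here. Kcne3, a small subunit that keeps Kcnq1 channels open in epithelia, was at -2.53 in CKO brain against -3.73 in WT brain, and at -0.49 in CKO limb against -1.19 in WT limb. It was 2.29-fold higher in CKO brain and 1.62-fold higher in CKO limb, and its second probe read 2.20-fold and 1.67-fold (chr7:107333062-107333121, mm9, for the brighter). Its partner Kcnq1 was at -2.29 in CKO brain against -2.62 in WT brain, 1.25-fold higher.

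At the lower threshold of 1.5-fold, 4 of the 72 genes were higher in CKO brain, against 3.48% of all genes, and 2 were lower, against 1.98%. Kcne1 and Kcnk12 were among the higher ones. Kcne1, which slows Kcnq1 channels in heart and inner ear, was at -4.12 in CKO brain against -4.87 in WT brain, 1.68-fold higher. Both Kcne1 levels were in the range where the spot SD was 0.34, and its second probe was not well above background on either brain array. Lower at that threshold were Kcna1 and Kcnn3. Kcna1, a Shaker subunit of axons, was at -0.01 in CKO brain against 0.84 in WT brain, 1.80-fold lower, and at 0.53 in CKO limb against 0.54 in WT limb. Kcnn3, a small-conductance calcium-activated channel, was at -5.47 in CKO brain against -4.87 in WT brain, 1.51-fold lower, both levels in the range where the spot SD was 0.34. The largest measured brain differences of the remaining classes were 0.56 for Kcnk6, 0.56 for Kcnf1, -0.56 for Kcnj16 and -0.44 for Kcnh3. Kcnd3 was at -4.51 in CKO brain against -4.64 in WT brain.

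Of the 11 genes higher in CKO limb, 10 could be measured in brain, where their CKO minus WT differences ran from -0.38 to 0.59 with a median of 0.28, and 7 were above 0. Kcnh1, Kcnj12 and Kcnb2 were those below 0. With 1 array a group, no spread between embryos is known against which these brain values could be read.

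**Figure D3:**
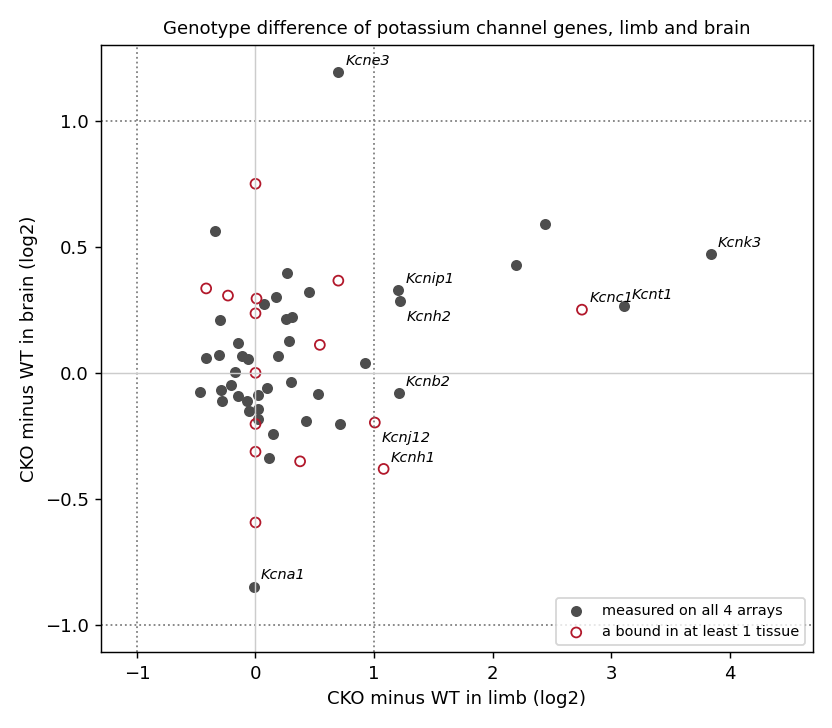
CKO minus WT difference in limb (horizontal axis, log2) and in brain (vertical axis, log2) for each potassium channel gene compared in both tissues (filled points, measured on all 4 arrays; open points, a bound in at least 1 tissue; dotted lines, 2-fold). The 10 genes past 2-fold in limb lie between -0.38 and 0.59 in brain, and Kcne3 is the one gene past 2-fold in brain.

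Markers of tissues around the brain differed between the brain arrays. Of 8 cartilage genes 7 were at least 2-fold higher in CKO brain, with a summed signal of 15.2 in CKO brain against 6.26 in WT brain. Of 5 inner ear genes 4 could be compared and 4 were higher, with 6.44 in CKO brain against 0.207 in WT brain. Of 7 sensory ganglion genes 3 were lower, with 3.0 in CKO brain against 4.99 in WT brain. The part of these tissues in the values of Kcne3, Kcne1 and Kcna1 was not tested.

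A difference shared by both tissues was the one genotype comparison with a test, a limma fit of CKO against WT with tissue as a block over 15632 genes well above background on all 4 arrays. It had 1 residual degree of freedom, which is how far the CKO minus WT difference departs from being the same in both tissues. With no replicate arrays, its SEs and p-values hold no spread between embryos of a group. Of the 43 potassium channel genes tested 0 passed an adjusted p of 0.05 (0% of all genes higher, 0% lower), and 5 had an unadjusted p below 0.05, against 6.29% of all genes. The 5 were Kcna5, Kcne3, Kcnj14, Kcnk5 and Kcnq1. Kcne3 had a shared difference of 0.95 ± 0.16 (SE) with a limma adjusted p of 0.66, higher in CKO in both tissues. Kcnq1 had 0.39 ± 0.066 (SE), with the same adjusted p.

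Brain and limb themselves were set apart far more than the genotypes. In WT, 34 of 69 potassium channel genes compared (49.3%) were at least 2-fold higher in brain than in limb, against 15.8% of all 18435 genes, and 13 (18.8%) were lower, against 18.9%. The median brain minus limb difference was 0.95, against -0.0015 over all genes. Of the 69, 43 were measured on both WT arrays; of these 20 were higher in brain, against 13.8% of all genes so measured, and 10 were lower, against 16.1%. Under normexp background correction 5 potassium channel genes were lower and the median was 0.52. This comparison uses the same WT limb array as the CKO minus WT limb comparison, so the values of the 2 are not independent.

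Kcne2, which joins Kcnq1 in the choroid plexus epithelium, was at 2.01 in WT brain and not well above background in WT limb, at least 125-fold higher in brain. It was at 2.06 in CKO brain. Kcnt1 was 21.4-fold higher in WT brain, Kcnj10, the glial inward rectifier, at least 19.7-fold, Kcnc1 at least 15.9-fold and Kcnk10, a mechanosensitive leak channel, at least 10.2-fold. Kcnj10 was at -0.65 in WT brain and not well above background in WT limb, and at -0.85 in CKO brain against -5.27 in CKO limb. Both genotypes thus had the gene high in brain.

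Genes lower in brain included 3 of 4 silent subunits compared, 3 of 8 tandem-pore channels and 3 of 15 accessory subunits, against 18.9% of all genes. The others were 2 of 10 inward rectifiers, 1 of 13 Kv alpha subunits and Kcnq1ot1. Kcne4, an inhibitory partner of Kcnq1 and Kcna channels, was not well above background in WT brain and at -1.0 in WT limb, at least 20.4-fold lower in brain. Kcnk6, a weakly rectifying leak channel, was at -2.68 in WT brain against 0.94 in WT limb, 12.3-fold lower. Kcne3 was 5.80-fold lower, the silent subunit Kcns3 4.57-fold and the noncoding Kcnq1ot1 3.73-fold. Kcnq1ot1 was at -0.95 in WT brain against 0.94 in WT limb, and at -0.89 in CKO brain against 0.83 in CKO limb.

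**Figure D4:**
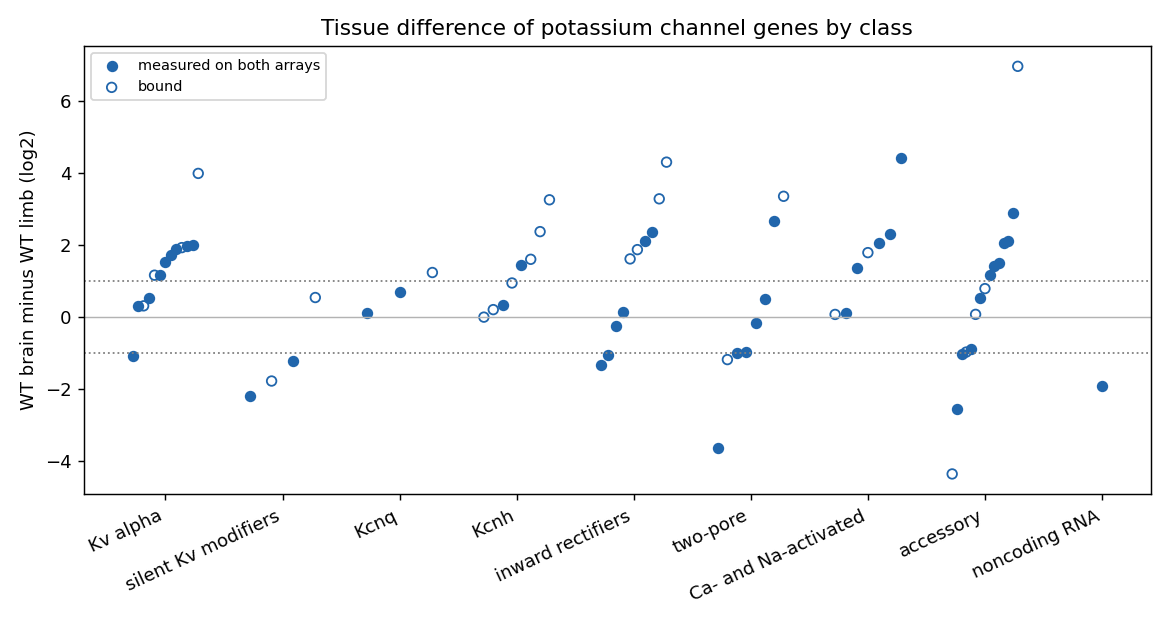
WT brain minus WT limb difference (vertical axis, log2) of each potassium channel gene compared, grouped by class (horizontal axis; filled points, measured on both arrays; open points, bounds; dotted lines, 2-fold). Most points of the Kv alpha, Kcnh, inward rectifier and calcium- and sodium-activated classes lie above 0, with 9, 4, 6 and 5 genes at least 2-fold higher in brain, while 3 of 4 silent modifiers lie below -1. Over all genes 15.8% were at least 2-fold higher in brain and 18.9% lower.

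By class, 9 of 13 Kv alpha subunits compared and 5 of 7 calcium- and sodium-activated channels were at least 2-fold higher in brain than in limb in WT. So were 6 of 10 inward rectifiers, 4 of 8 Kcnh subunits and 7 of 15 accessory subunits. Over all genes the share was 15.8%, and the classes are small. Kcnd2, an A-type subunit of dendrites, was at 1.39 in WT brain against -0.61 in WT limb. Of the silent modifiers 0 of 4 were higher and 3 lower (Kcns1, Kcns3 and Kcng2). Of the tandem-pore channels 2 of 8 were higher (Kcnk3 and Kcnk10) and 3 lower (Kcnk1, Kcnk6 and Kcnk7), against 15.8% and 18.9% of all genes. Kcna6 at 3.07 in WT brain against 2.53 in WT limb, and Kcnmb4, the neuronal beta subunit, at 3.17 against 2.66, were bright on every array and differed by less than 2-fold. Kcne1l was at 1.66 in WT brain against 2.67 in WT limb, 2.01-fold lower.

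The tissue difference over both genotypes could be tested, with brain minus limb in the same limma fit. Its SEs likewise measure how alike the brain minus limb difference was in CKO and WT, and not a spread between embryos. Of the 43 potassium channel genes tested 18 were higher in brain at an adjusted p of 0.05, against 32.2% of all genes, and 12 were lower, against 34.4%. Kcnn1, a small-conductance calcium-activated channel, was 2.26 ± 0.064 (SE) higher in brain with a limma adjusted p of 0.0057. Its levels were 0.40 in CKO brain, 0.48 in WT brain, -1.81 in CKO limb and -1.84 in WT limb. Kcnj9, a G-protein-gated rectifier, was 2.43 ± 0.072 (SE) higher with a limma adjusted p of 0.0057. Kcnk6 had a difference of -3.17 ± 0.29 (SE), limma adjusted p 0.011, and Kcns3 one of -2.39 ± 0.13 (SE), limma adjusted p 0.0067. Kcnk3 and Kcnt1, whose limb levels differed by genotype, had SEs of 1.06 and 0.89 here and did not pass.

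CKO limb was finally set against WT brain. Of 72 compared, 16 (22.2%) were at least 2-fold higher in CKO limb, against 16.6% of all genes, and 31 (43.1%) were lower, against 16.4%. The median difference was -0.68. Of the 54 measured on both arrays 13 were higher, against 14.3% of all genes so measured, and 21 were lower, against 15.3%. Under normexp background correction 9 were higher and 19 lower. Each array here also enters a comparison above. Kcnk3 was at -0.25 in CKO limb against -1.42 in WT brain, 2.25-fold higher. Kcnv1 was at -2.64 in CKO limb and not well above background in WT brain, at least 6.58-fold higher. Kcnh2 was at -1.19 in CKO limb against -0.97 in WT brain and Kcnb2 at -3.29 against -2.96, both less than 2-fold apart. Kcnt1, Kcnc1, Kcnip1, Kcnh1 and Kcnj12 were 2.35-fold to 4.85-fold lower in CKO limb than in WT brain.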

How the data were processed

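Total RNA was labelled with Cy3 and hybridised to 1-colour Agilent arrays, per the labels' protocols, and, per the submitters' processing notes, Agilent Feature Extraction 9.5.3.1 read the spots. The deposited scanner values are intensities, background-subtracted and detrended within each array, per the file headers. The authors deposited the same intensities in a series table, used as an alternative.

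Here log2 intensity of the deposited processed signal was taken for non-control spots, each array's 75th percentile was subtracted, and spots of a probe were averaged, leaving out outlier flags where another spot remained. A bound set the bright array against the dim array's lowest signal among probes well above background, or the probe's own if higher, and was set to 0 if it pointed the other way. Of 41174 probes 26925 were named by accession, 5576 by symbol and 893 by synonym through a RefSeq table, and 7780 kept the file's name. All 87 members kept theirs. Probe positions are mm9, as in the files, and their place in the transcript was not annotated here.

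Named genes were those 2-fold different between genotypes, the brightest on each array, the 5 largest tissue differences each way, the largest measured genotype difference per class and tissue, and genes known from other work as ones that REST can repress (Kcnn4, Kcnq3 and Kcnd3 among them). Some genes that enter the counts are not reported here by name. Any other gene was named with its values known. Members and lists were chosen with earlier results of these data known. Alternatives were normexp background correction (with 50 added to each intensity), quantile and median scaling, other filters on dim probes, the mean of all probes, 1.5-fold and the series table. Limma 3.58.1 (R 4.3.3), tested on simulated data, used Benjamini-Hochberg adjustment; the rest used Python 3.11.15, numpy 2.4.6, pandas 2.3.3 and matplotlib 3.10.9. The 4 arrays, 1 per group, limit the precision. With no replicates, the limma p-values measure how alike a difference was across the other factor, with variance shared over genes. They do not measure a spread between embryos.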

Additional observations from a re-analysis of the deposited data

Results flagged for a closer look

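Among the 11 potassium channel genes at least 2-fold higher in CKO limb, 3 had a CKO minus WT difference below 0 in brain, with 1 array a group. The difference between tissues was not tested. Kcnb2 was 1.21 higher in CKO limb and -0.08 apart in brain, a brain value below the spot SD for probes below -3. Kcnh1 was at least 1.08 higher in CKO limb and -0.38 apart in brain, where a second probe read -0.42. Kcnj12 was at least 1.01 higher in CKO limb and -0.20 apart in brain.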

How the results depend on the processing

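No paired analysis was possible because the labels give no replicate numbers and each group had 1 array, and for the same reason no array could be left out in turn. Under normexp background correction, 6 potassium channel genes were at least 2-fold higher in CKO limb and 0 lower, with a median of 0.014. Kcnb2, Kcnh1, Kcnh2, Kcnip1, Kcnj12 and Kcnmb1 lost their call there, while Kcnk3, Kcnt1, Kcnc1 and Kcnv1 were among those that kept theirs, at 2.74, 1.73, 1.62 and 1.15. Under the same correction 0 were higher in CKO brain (median -0.029; Kcne3 read 0.67), the WT brain minus WT limb median was 0.52 with 5 lower, and CKO limb against WT brain gave 9 higher, 19 lower and a median of -0.30. Requiring signal well above background on both arrays left 7 higher and 0 lower in limb and 20 higher in WT brain, with medians of 0.53 for WT brain minus WT limb and -0.49 for CKO limb minus WT brain; by construction it drops every bound. With no filter on dim probes 18 were higher and 2 lower in limb, 1 was lower in brain, and those medians were 0.70 and -0.42. With the mean of all probes 0 were lower in limb and 1 was lower in brain, Kcnh1, Kcnv1 and Kcnmb1 lost their limb call, and the medians were 0.75 and -0.51. Quantile normalization gave medians of 1.08 and -0.77, and median scaling 1.05 and -0.76. At 1.5-fold, 15 were higher and 2 lower in limb, against 4.78% and 4.73% of all genes, and 4 were higher and 2 lower in brain, against 3.48% and 1.98%. In the limma tissue fit, testing genes well above background on at least 1 array gave 30 of 76 potassium channel genes higher in brain and 16 lower, against 24.96% and 25.9% of all genes. Over all genes, normexp called 286 higher and 145 lower in limb and 87 and 113 in brain, against 461, 399, 259 and 232 without it, and no filter called 935 and 906 in limb and 720 and 670 in brain. No called value changed direction under these alternatives. Of 449 values of single genes under them, 386 stayed within the spot SD. The other 63 moved by more, 27 of them under normexp and 19 with the mean of all probes. Requiring both arrays keeps each measured difference as it is, and the series table holds the same intensities. Those 2 settings moved 0 values and so say little about stability. Signal over background limits the dim genes: the lowest detected level was -5.76 on CKO limb and -4.95 on WT limb, so a gene dark in WT limb was bounded against -4.95 or its own signal.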

Other observations

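Pumps and cotransporters that maintain the ion gradients used by potassium channels were listed apart from the channels. In limb 22 of 26 could be compared, of which 2 passed 2-fold upward in CKO and 1 downward, against 2.5% and 2.16% of all genes. Among them Slc12a5, the neuronal potassium-chloride cotransporter, was at 1.73 in CKO limb against -0.84 in WT limb, 5.97-fold higher. Its relatives Slc12a4 and Slc12a7 differed by -0.24 and 0.18. Atp12a, a proton-potassium pump, was at -4.84 in CKO limb against -3.82 in WT limb, 2.02-fold lower, in the range where the spot SD was 0.31. In brain 22 could be compared and 0 differed 2-fold between CKO and WT.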
